A study of Mus musculus with 12 samples.

Results

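The genes described here encode the proteins that pass a signal from the T cell receptor (TCR) to the inside of the cell in its first steps. They are the coreceptor *Cd4*, the phosphatase *Ptprc* (CD45), the kinases *Lck* and *Zap70*, the receptor zeta chain *Cd247*, the adaptors *Lat* and *Lcp2* (SLP-76), the phospholipase *Plcg1* and the inhibitory phosphatase *Ptpn22*. These 9 genes were taken by symbol, for their place in the pathway and with earlier results of these data known, out of the 24561 genes counted. RNA was sequenced from OT-II T cells, which carry a transgenic TCR specific for an ovalbumin peptide, after transfer into CD45.1 mice that lack SAP (*Sap*-/-). Recipients were immunized with NP-OVA plus LPS in alum 1 day after transfer, and OT-II cells that were CXCR5hiPD-1hi, the phenotype of follicular helper T (Tfh) cells, were sorted from the draining lymph node on day 3. There were 3 recipients of wild-type (*Cd4-cre*) cells and 3 of BCL6-insufficient (*Cd4-cre* × *Bcl6*fl/+) cells on the C57BL/6 strain, each giving 2 technical repeats of about 200 cells, or 12 libraries. Both groups carried *Cd4-cre*, in which regulatory elements of *Cd4*, itself 1 of the 9 genes, drive the Cre recombinase. The age and sex of the mice and the number of donors for this transfer were not given in the sources used here, so donor and genotype cannot be told apart. The p-values rest on the spread between recipients, which edgeR partly shares across genes.

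When the TCR meets its ligand, CD4 brings the kinase LCK to the receptor complex, where LCK phosphorylates the zeta chains and ZAP-70 docks on them. CD45 keeps LCK ready by removing an inhibitory phosphate, and PTPN22 turns the signal down by dephosphorylating LCK and ZAP-70. ZAP-70 phosphorylates LAT and SLP-76, which together hold phospholipase C gamma 1. That enzyme makes inositol trisphosphate, which releases calcium from stores, and diacylglycerol, which activates the RAS and protein kinase C pathways. In Tfh cells these steps are set off by antigen presented on B cells.

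Libraries of BCL6-insufficient cells held 3343375 to 8315722 counts and those of wild-type cells 5240715 to 7266106, and the 9 genes had between 252 (*Plcg1*) and 10035 (*Ptprc*) counts in a library. The *Bcl6* transcript was higher, not lower, in the libraries labelled BCL6-insufficient, at 149 ± 2.18 normalized CPM (SD, n = 3 mice) against 62.4 ± 11.5 (SD, n = 3), so every direction below rests on the labels. Normalized CPM is the count divided by the library size after TMM scaling, set to the usual common depth. Of the Tfh marker genes, *Cxcr5*, *Pdcd1*, *Icos*, *Bcl6*, *Il21*, *Sh2d1a* and *Tox2* were detected in all 12 libraries. The groups differed in 5 of these 7, where 18% of all genes tested differed, with *Cxcr5* (a log2 fold change of -0.40, edgeR adjusted p = 0.00476) and *Pdcd1* (-0.42, 0.00420), which encode the surface proteins used in the sort, and *Tox2* (-0.80, 8.01e-06) lower, and *Icos* (0.64, 0.000147) and *Bcl6* higher. Of the CD8 T cell genes, *Cd8a* was at 0 in 11 of the 12 libraries and *Cd8b1* was at 19.1 to 48.6 normalized CPM in all of them. The part of these differences in the results below was not tested. The first library of wild-type mouse 2 stood apart, with 99.8 normalized CPM of *Bcl6* and 20.9% of its counts in a single ribosomal RNA gene, and results that changed without it are given below.

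Most of the 9 genes were lower in the cells labelled BCL6-insufficient. Of the 9 genes, 6 were lower, none was higher and 3 were not called at an adjusted p under 0.05 (quasi-likelihood test of edgeR, Benjamini-Hochberg adjusted over 12719 genes, 3 mice against 3), where 18% of all genes tested were called, 8.82% lower and 9.17% higher. The median log2 fold change of the 9 genes was -0.33, and that of all tested genes was 0.01. The genes that fell were *Plcg1*, *Zap70*, *Lcp2*, *Cd4*, *Lck* and *Lat*, by between 0.31 and 0.57 on the log2 scale. *Ptpn22*, *Cd247* and *Ptprc* were not called, with log2 fold changes of -0.17, -0.03 and 0.03. Without the first library of wild-type mouse 2, 4 of the 9 were lower and called (13.5% of all genes were called in that fit), and with GC content and length trends removed 3 were (16.2% of all genes). The values of the 3 mice of each group did not overlap in 5 of the 9 genes, each lower in the BCL6-insufficient group, against 17% of all genes tested in that direction and 34.4% in either. Over the 12 single libraries, 4 of the 9 genes (*Plcg1*, *Zap70*, *Lck* and *Lat*) did not overlap, against 4.53% of all genes. In sorted bulk cells, fewer cells of a type and less RNA per cell cannot be told apart.

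**Figure D1:**
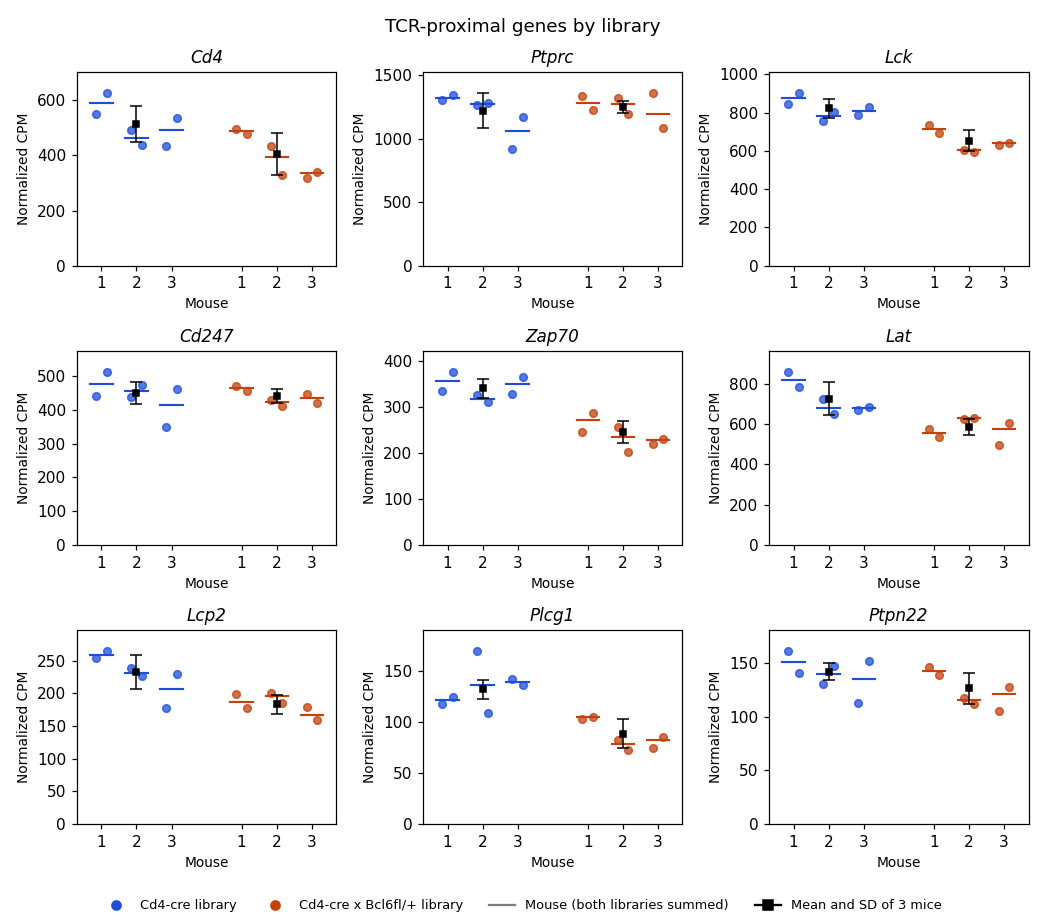
Normalized CPM (vertical axes, linear and starting at 0) of the 9 genes in each mouse (horizontal axis), with points for the 2 libraries of a mouse, coloured lines for the mouse, and black squares with bars for the mean and SD of 3 mice. The *Plcg1*, *Zap70*, *Lck* and *Lat* points of the BCL6-insufficient group all lie below those of the wild-type group, while the *Ptprc* and *Cd247* points overlap.

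The sequence before the transcription start is shown for *Plcg1* and *Zap70*, the members with the largest fold changes when repeats were summed, and for *Lck*, which is transcribed from a distal and a proximal start. The sequences are RefSeq's for GRCm38.p6, printed 5′ to 3′ on the gene's strand and ending before the annotated exon. They cover chr2:160731060-160731299 (plus strand) for *Plcg1*, chr1:36761548-36761797 (plus strand) for the first of 3 *Zap70* starts, chr4:129573642-129573891 (minus strand) for the distal *Lck* start and chr4:129558392-129558622 (minus strand) for the proximal one. Capitals mark matches, on either strand, to TGTGGT (the core bound by RUNX factors), AGGAAGT (ETS factors), CAGGTG (an E box) and TTCNNNGAA (a core shared by STAT factors and BCL6).
*Plcg1*: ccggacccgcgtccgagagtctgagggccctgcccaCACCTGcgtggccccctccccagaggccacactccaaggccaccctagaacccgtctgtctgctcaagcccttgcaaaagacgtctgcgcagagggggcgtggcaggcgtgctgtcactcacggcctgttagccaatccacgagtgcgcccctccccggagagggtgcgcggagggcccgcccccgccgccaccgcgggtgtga
*Zap70*: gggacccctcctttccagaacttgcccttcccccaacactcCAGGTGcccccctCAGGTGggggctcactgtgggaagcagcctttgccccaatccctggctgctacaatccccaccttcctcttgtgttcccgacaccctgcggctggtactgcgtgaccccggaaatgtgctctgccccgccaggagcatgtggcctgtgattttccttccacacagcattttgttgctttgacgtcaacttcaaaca
*Lck* distal start: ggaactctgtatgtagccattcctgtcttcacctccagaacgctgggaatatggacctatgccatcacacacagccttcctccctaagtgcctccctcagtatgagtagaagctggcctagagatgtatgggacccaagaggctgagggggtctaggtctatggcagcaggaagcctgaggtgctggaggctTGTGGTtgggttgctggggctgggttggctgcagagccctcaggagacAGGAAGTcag
*Lck* proximal start: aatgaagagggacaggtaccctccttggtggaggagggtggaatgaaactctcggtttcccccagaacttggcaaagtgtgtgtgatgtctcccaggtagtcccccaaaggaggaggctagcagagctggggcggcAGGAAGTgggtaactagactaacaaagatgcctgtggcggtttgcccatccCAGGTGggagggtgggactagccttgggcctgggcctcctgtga
Windows of 250 bases before the start were at hand for 8 of the 9 genes, 13 in all, and *Cd4* had none. CAGGTG matched in 5 of the 13 windows (*Plcg1*, *Zap70*, *Lck* and *Cd247*), and in 17.2% of 32851 such windows over all genes. AGGAAGT matched in 5 of the 13 (*Lck*, *Ptprc* and *Cd247*), against 7.69% of all windows. TGTGGT matched in 3 (*Lck*, *Zap70* and *Ptpn22*), against 14%. TTCNNNGAA matched in 1, before the second start of *Ptpn22*, against 7.02%, and neither TTCCTAGAA, a case of TTCNNNGAA, nor CGGAAGT, another ETS form that shares GGAAGT with the first, matched in any, against 0.347% and 4.92%. Windows of 1 gene can overlap, as those of *Ptprc* do, which share an AGGAAGT match. The motifs were chosen after a first look at the promoters, and these matches describe the letters only.

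*Cd4* (ENSMUSG00000023274.14, chromosome 6, 124864692 to 124888221, minus strand, GRCm38) encodes the coreceptor that binds MHC class II. It was at 487, 394 and 336 normalized CPM in the BCL6-insufficient mice and at 589, 462 and 491 in the wild-type mice. The groups overlapped, since BCL6-insufficient mouse 1 lay above wild-type mouse 2. The log2 fold change was -0.34 (SE 0.12, edgeR adjusted p = 0.0446), the weakest of the 6 calls. The call was lost without the first library of wild-type mouse 2 at a similar fold change (-0.33, edgeR adjusted p = 0.0867) and without each of 4 of the mice, where the fold change was -0.22 without BCL6-insufficient mouse 3, and a two-sided exact permutation test of the 6 mouse values gave p = 0.2, where 0.1 is the smallest this design allows. *Ptprc* (ENSMUSG00000026395.16, chromosome 1, 138062861 to 138175708, minus strand) encodes CD45, the phosphatase that primes LCK. It was at 1277, 1275 and 1191 normalized CPM in the BCL6-insufficient mice and at 1322, 1270.4 and 1062 in the wild-type mice. The ranges overlapped, and the log2 fold change of 0.03 had a 95% confidence interval from -0.15 to 0.22.

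*Lck* (ENSMUSG00000000409.14, chromosome 4, 129548344 to 129573641, minus strand) encodes the SRC-family kinase that phosphorylates the receptor chains. Its libraries held 734 and 692, 607 and 596, and 629 and 641 normalized CPM in BCL6-insufficient mice 1, 2 and 3, and 846 and 905, 756 and 802, and 786 and 830.0 in wild-type mice 1, 2 and 3. Every BCL6-insufficient library was below every wild-type library, and the repeats of a mouse lay close together, with an SD between repeats of 0.05 on the log2 scale against a median of 0.21 over 5978 well-expressed genes. The means were 653 ± 54.5 (SD, n = 3 mice) and 822 ± 48.2 (SD, n = 3), a log2 fold change of -0.33 (SE 0.09, edgeR adjusted p = 0.0121). Leaving out BCL6-insufficient mouse 2 or wild-type mouse 1 ended the call, at log2 fold changes of -0.28 and -0.29 (edgeR adjusted p = 0.0794 and 0.0600).

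*Cd247* (ENSMUSG00000005763.15, chromosome 1, 165788681 to 165877277, plus strand) encodes the zeta chain on which ZAP-70 docks. Its mice held 464, 424 and 433 normalized CPM in the BCL6-insufficient group and 477, 457 and 414 in the wild-type group. The groups overlapped, and the log2 fold change of -0.03 had a 95% confidence interval from -0.21 to 0.16. Its counts are uncertain, because 56.4% of its exonic bases are shared with the gene *Pou2f1* on the other strand and the strand setting of the counting was not given. *Zap70* (ENSMUSG00000026117.10, chromosome 1, 36761798 to 36782818, plus strand) encodes the kinase that docks there. Its libraries held 246 and 287, 255 and 203, and 220.1 and 229 normalized CPM in BCL6-insufficient mice 1, 2 and 3, and 336 and 377, 326 and 309.9, and 329 and 365 in wild-type mice 1, 2 and 3. All 6 BCL6-insufficient libraries were below all 6 wild-type libraries. The means were 245 ± 23.4 (SD, n = 3 mice) and 341 ± 21.1 (SD, n = 3), a log2 fold change of -0.47 (SE 0.10, edgeR adjusted p = 0.00149). *Zap70* was still called without any 1 of the 6 mice, with edgeR adjusted p from 0.00117 to 0.0130, and its fold change was -0.28 with GC content and length trends removed (0.0401).

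Both adaptors among the 9 genes were also called lower. *Lat* (ENSMUSG00000030742.7, chromosome 7, 126363824 to 126369570, minus strand) encodes the membrane scaffold that ZAP-70 phosphorylates. It was at 556, 629 and 574 normalized CPM in the BCL6-insufficient mice and at 821, 681 and 679 in the wild-type mice. The groups did not overlap, and wild-type mouse 1 stood above the other two. The log2 fold change was -0.31 (SE 0.09, edgeR adjusted p = 0.0240), and the call was lost without wild-type mouse 1 (-0.22, edgeR adjusted p = 0.154), without BCL6-insufficient mouse 1 (-0.27, edgeR adjusted p = 0.0898) and without the first library of wild-type mouse 2 (-0.30, edgeR adjusted p = 0.0538). *Lcp2* (ENSMUSG00000002699.13, chromosome 11, 34046920 to 34092295, plus strand) encodes SLP-76, the cytosolic adaptor that joins LAT. It was at 187, 195 and 167 normalized CPM in the BCL6-insufficient mice and at 259, 231 and 207 in the wild-type mice. The mice did not overlap, although the first library of wild-type mouse 3, at 178, lay within the range of the BCL6-insufficient libraries, from 159 to 201. The log2 fold change was -0.34 (SE 0.10, edgeR adjusted p = 0.0237), and it was not called without wild-type mouse 1 (-0.27, edgeR adjusted p = 0.135), wild-type mouse 2 (-0.36, 0.0579) or BCL6-insufficient mouse 3 (-0.29, 0.0825).

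*Plcg1* (ENSMUSG00000016933.17, chromosome 2, 160731300 to 160775760, plus strand), whose product makes the second messengers of the pathway, had the largest fold change of the 9 when the repeats were summed. With the second repeat of each mouse alone, *Zap70* was at -0.54 and *Plcg1* at -0.49. Its libraries held 103 and 105, 82.8 and 72.1, and 74.9 and 85.1 normalized CPM in BCL6-insufficient mice 1, 2 and 3, and 118 and 125, 169.6 and 109, and 142 and 137 in wild-type mice 1, 2 and 3. No BCL6-insufficient library reached the lowest wild-type library, and the repeats of wild-type mouse 2 were the farthest apart. The means were 88.6 ± 13.9 (SD, n = 3 mice) and 132 ± 9.44 (SD, n = 3), a log2 fold change of -0.57 (SE 0.12, edgeR adjusted p = 0.00149). Without the first library of wild-type mouse 2 it was -0.48 (edgeR adjusted p = 0.0160), and it was still called without any 1 of the 6 mice. *Ptpn22* (ENSMUSG00000027843.13, chromosome 3, 103859795 to 103912247, plus strand), which encodes the phosphatase that opposes LCK and ZAP-70, was at 143, 116 and 121 normalized CPM in the BCL6-insufficient mice and at 151, 140.0 and 136 in the wild-type mice. The groups overlapped through BCL6-insufficient mouse 1, and the log2 fold change of -0.17 had a 95% confidence interval from -0.39 to 0.05 (edgeR adjusted p = 0.309). It was -0.27 without BCL6-insufficient mouse 1 and -0.11 without BCL6-insufficient mouse 2.

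**Figure D2:**
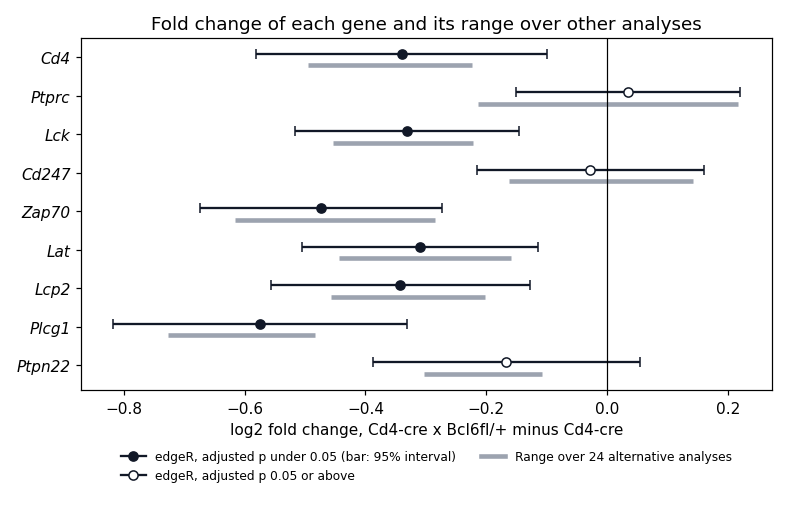
Log2 fold change of the 9 genes, BCL6-insufficient minus wild-type (horizontal axis), with points and 95% confidence intervals from edgeR on 3 mice against 3 (filled where the adjusted p is under 0.05) and grey bars for the range over 24 alternative analyses. The bars of *Cd4*, *Lck*, *Zap70*, *Lat*, *Lcp2*, *Plcg1* and *Ptpn22* lie below 0, and those of *Ptprc* and *Cd247* cross it.

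The 9 transcripts were at different levels per length. On the scale of normalized CPM per kilobase of exon, averaged over the 6 mice, *Lck* (252) and *Lat* (237) were highest, at the 98.1 and 98.0 percentiles of all tested genes. *Cd4* (114), *Zap70* (97.9) and *Cd247* (83.5) followed, then *Ptprc* (67.3) and *Lcp2* (46.6), and *Ptpn22* (19.8) and *Plcg1* (14) were lowest. The length was that of all annotated exons of a gene merged, such as 18313 bases for *Ptprc* and 2929 for *Lck*. A gene with more annotated exons than its transcripts use can rank too low here. The *Cd247* level is uncertain, because 56.4% of its exonic bases are shared with *Pou2f1*. Single mice ranged from 206 to 299 for *Lck* and from 201 to 297 for *Lat*, and *Lck* was above *Lat* in 5 of the 6 mice, so these neighbours did not differ beyond their spread. *Cd4* (83.4 to 146) was above *Zap70* (76.3 to 119) within each of the 6 mice although their ranges overlapped, and *Zap70* was above *Cd247* (77.7 to 89.5) in 4 of 6. *Plcg1*, at the 75.3 percentile, ranged from 10.04 to 17.7, and it was below *Ptpn22* within each of the 6 mice.

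The proportions among the 9 genes do not depend on how libraries are scaled to each other. Each value was taken as a centred log ratio, the log2 level minus the mean log2 level of the 9 genes in the same mouse, and differences are again BCL6-insufficient minus wild-type. *Zap70* was at -0.38, -0.44 and -0.43 in the BCL6-insufficient mice and at -0.25, -0.29 and -0.12 in the wild-type mice. *Ptprc* went the other way, at 1.85, 2.0 and 1.95 against 1.64, 1.71 and 1.49. Relative to the other 8 genes, then, *Zap70* made up less and *Ptprc* more in every BCL6-insufficient mouse than in any wild-type mouse. With the trends on GC content and length removed, the fold change minus the mean of the 9 genes went from -0.19 to -0.03 for *Zap70*, from 0.32 to 0.04 for *Ptprc*, from -0.29 to -0.27 for *Plcg1*, from 0.25 to 0.19 for *Cd247*, from 0.11 to 0.03 for *Ptpn22* and from -0.03 to 0.09 for *Lat*. *Cd247* (a difference of 0.26) and *Ptpn22* (0.11) lay with *Ptprc* (0.32). The groups did not overlap in *Zap70*, *Ptprc*, *Cd247* and *Ptpn22*, or 4 of the 9 genes. A share over all genes was not computed for this ratio. For normalized CPM, 34.4% of all genes tested did not overlap in either direction. *Plcg1* had a difference of -0.30, with BCL6-insufficient mouse 1 at -1.76 and wild-type mouse 1 at -1.81. *Lck*, *Lat*, *Lcp2* and *Cd4* differed by between -0.07 and -0.02, less than the SD between mice within groups. Centred on the median of the 9 genes instead of the mean, they differed by between -0.17 and -0.12, more than that SD for *Lck*, *Lcp2* and *Cd4*, and the difference of *Ptpn22* was 0.01. The two-sided exact permutation p was 0.1 for *Zap70*, *Cd247*, *Ptprc* and *Ptpn22*, the smallest that 3 mice against 3 allow, and the 9 ratios constrain each other because they sum to 0.

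**Figure D3:**
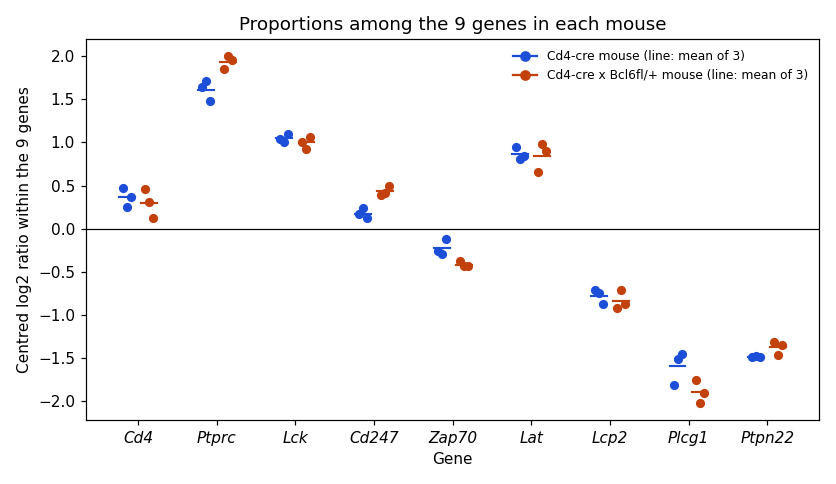
Centred log2 ratio of each of the 9 genes (vertical axis, the log2 level minus the mean of the 9 genes in the same mouse), with 3 points per group and a line at their mean. The *Zap70* points of the BCL6-insufficient mice lie below those of the wild-type mice, and their *Cd247*, *Ptprc* and *Ptpn22* points lie above.

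The repeats gave the same direction for most genes. With the first repeat of each mouse alone, 7 of the 9 fold changes were below 0 and 2 genes were called (9.38% of all genes were), and with the second alone 9 were below 0 and 5 were called (12.4% of all genes), all lower in the BCL6-insufficient group. Whether the difference between repeats depended on the genotype was tested with an interaction term, which called 0.115% of 11259 genes and none of the 9 at an adjusted p under 0.05. On simulated data this test recovered only 12.5% of the genes given a 2-fold interaction. The lack of a call among the 9 therefore does not show that their repeats agreed. At an unadjusted p under 0.05 it picked *Ptprc* alone among the 9 (edgeR adjusted p = 0.533), and limma voom, run in place of edgeR, called 22 genes in all. The SD between repeats on the log2 scale ran from 0.05 for *Lck* to 0.20 for *Plcg1*.

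The 9 genes differed in base composition along with their fold changes. The 6 genes that fell had a GC content of the longest transcript between 46.8% (*Lcp2*) and 59.6% (*Zap70*), and the 3 that were not called had 39.4% (*Ptprc*), 44.4% (*Cd247*) and 44.8% (*Ptpn22*). Over all tested genes the median log2 fold change went from 0.17 in transcripts under 40% GC to -0.08 in those from 55% to 60% GC. With the trends on GC content and length removed within each mouse, 3 of the 9 genes and 16.2% of all genes were called, namely *Plcg1* (-0.53, edgeR adjusted p = 0.00260), *Lcp2* (-0.33, 0.0279) and *Zap70* (-0.28, 0.0401). *Lck* then had -0.22 (edgeR adjusted p = 0.0949), *Cd4* -0.26 (0.136) and *Lat* -0.16 (0.253), and *Ptprc* moved from 0.03 to -0.21 (0.0801). All 9 values were then below 0, between -0.53 and -0.07. What part base composition had in the measured differences was not tested.

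**Figure D4:**
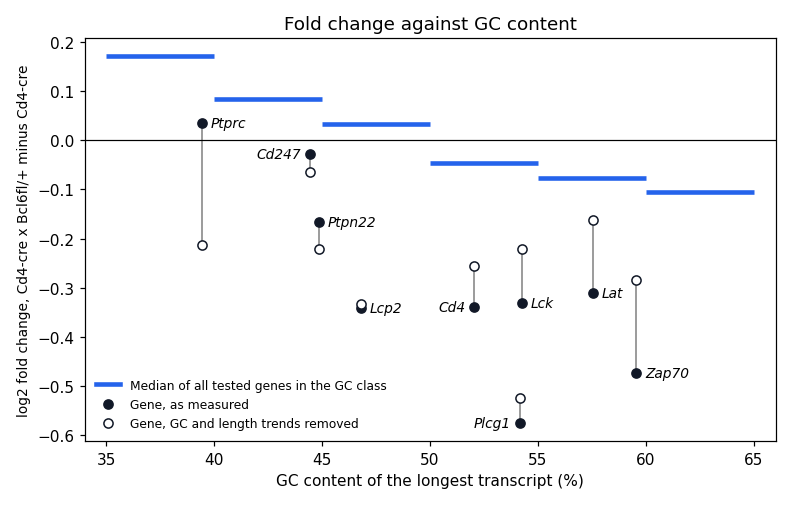
Log2 fold change, BCL6-insufficient minus wild-type (vertical axis), against GC content of the longest transcript in percent (horizontal axis), for the 9 genes as measured (filled) and with GC and length trends removed (open). Blue lines give the median of all tested genes per GC class, with the open classes drawn to 35% and 65%. The medians step down from 0.17 to -0.10, and the filled points of all 9 genes lie below the median of their class.

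Outside the 9 genes, the rest of the pathway changed at about the rate of all genes. Of 64 further genes of TCR signaling, 60 were tested, 2 were higher, 9 were lower and 49 were not called, which is 18.3% called against 18% of all genes, with a median log2 fold change of 0.00. None of the 5 receptor and costimulation genes was called. *Cd3e*, a signaling chain of the receptor, was at 471, 428 and 385 normalized CPM in the BCL6-insufficient mice and at 501, 564 and 474 in the wild-type mice, which did not overlap (log2 fold change -0.26, edgeR adjusted p = 0.0665). *Cd3d* had a log2 fold change of 0.00, *Cd3g* 0.11, *Cd2* 0.00 and *Cd28* 0.01.

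Of the 6 other proximal kinases tested, only *Fyn* was called, and it was higher (16.7% called, against 18% of all genes). *Fyn* encodes the second SRC-family kinase of T cells. It was at 182, 157 and 164 normalized CPM in the BCL6-insufficient mice and at 139.7, 134 and 123 in the wild-type mice, a log2 fold change of 0.34 (SE 0.10, edgeR adjusted p = 0.0214). All 3 BCL6-insufficient mice lay above all 3 wild-type mice, the opposite order from *Lck*. *Csk*, the kinase that restrains LCK, had a log2 fold change of 0.11 (edgeR adjusted p = 0.481). Among counterparts used by B and myeloid cells, *Syk* and *Plcg2* had at most 13 and 17 counts in a library and *Blnk* at most 23, too few to be tested. *Lat2*, at 2.98, 0.612 and 1.75 normalized CPM against 2.01, 0.356 and 1.95, was not called (log2 fold change 0.31, edgeR adjusted p = 0.805).

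Among 25 other adaptors and exchange factors tested, 5 were lower and 1 was higher, which is 24% called against 18% of all genes. The lower ones were *Was*, which drives actin assembly at the synapse (-0.75 on the log2 scale, edgeR adjusted p = 0.000171), *Trat1*, an adaptor that binds the receptor (-1.30, 0.000469), *Grap*, a relative of GRB2 (-0.55, 0.00130), *Skap1*, an adaptor of integrin activation (-0.31, 0.0150), and *Sh2d2a*, which binds LCK (-0.31, 0.0278). The RAS exchange factor *Sos1* was higher (1.09, edgeR adjusted p = 0.0103), at 12 ± 2.79 normalized CPM (SD, n = 3) against 5.66 ± 1.4 (SD, n = 3). Of 24 inhibitory phosphatases, ligases and adaptors, 4 were called, all lower, which is 16.7% against 18% of all genes. They were *Ubash3a*, a phosphatase-like restraint on TCR signaling (-0.72, edgeR adjusted p = 4.76e-05), *Sla2*, which promotes receptor turnover (-0.45, 0.0174), *Dok1*, an adaptor that recruits a RAS inhibitor (-1.22, 0.0283), and the surface receptor *Cd5* (-0.34, 0.0312). *Ptpn6*, the phosphatase SHP-1, had 0.03 (edgeR adjusted p = 0.880).

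**Figure D5:**
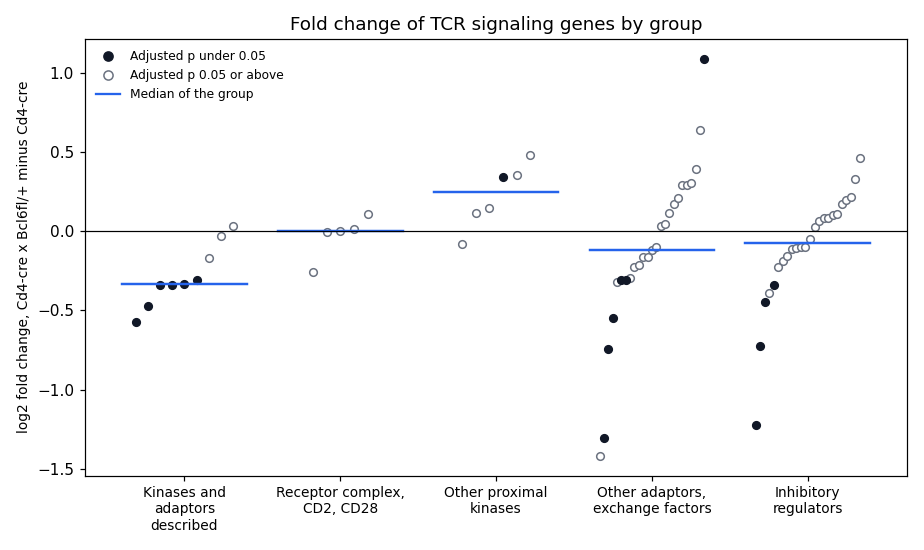
Log2 fold change, BCL6-insufficient minus wild-type (vertical axis), of each tested TCR signaling gene in 5 groups, filled where the edgeR adjusted p is under 0.05, with a blue line at the group's median. The 9 genes described here have a median of -0.33, and the medians of the other groups lie between -0.12 and 0.25.

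The genes whose 12 libraries followed each called member most closely were found among 5977 genes of at least 20 normalized CPM, by the root mean square (RMS) difference of their centred log2 profiles. For *Plcg1* they were *Hnrnpul1* (RMS difference 0.13), *Golga7* (0.15) and *Mta2* (0.15), and for *Zap70* they were *Nudt16l1*, *Limd2* and *Flii* (0.10 to 0.12). *Itgb2*, the beta chain of the integrin LFA-1, was nearest to *Lck* (0.08) and *Lcp2* (0.11) and second to *Cd4* (0.14). *Lck* was also near *Tubb5* and *Mapre1*, *Lcp2* near *Ptpn7* and *Pbxip1*, *Cd4* near *Supt5* and *Vgll4*, and *Lat* near *Dhx16*, *Cxcr5* and *Slc9a3r1*. None of the 9 genes was among the 3 nearest of a called member. The median RMS difference over all candidates ran from 0.31 for *Lck* to 0.43 for *Plcg1*.

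Markers of other cells were present and not equal between the groups. The summed level of 5 myeloid markers was 13.7 to 40.3 normalized CPM in the BCL6-insufficient libraries and 5.80 to 14.4 in the wild-type libraries, with *Lyz2* called higher (log2 fold change 2.64, edgeR adjusted p = 0.00531) and *Fcer1g* at 0 in 8 of 12 libraries. *Lyz2* was at 16.5, 3.67 and 3.19 in BCL6-insufficient mice 1, 2 and 3, and at 0.0916, 2.04 and 1.58 in the wild-type mice. The sum of 9 B cell markers was 467 to 771 against 589 to 972, most of it *Ighm* (448 to 867 in a library), while *Ms4a1* and *Pax5* were at 0 in 9 and 4 libraries, and none of the 6 tested was called. *Cd22* and *Cd74* were present in all 12 libraries, and the second library of BCL6-insufficient mouse 2 had the highest *Cd74* (94.5), *Cd79a* (19.8), *Cd79b* (16.5) and *Igkc* (22.9) in normalized CPM. Without that mouse, 4 of the 9 genes were called (13.8% of all genes). The sum of 6 T cell markers was higher, at 8806 to 10679 against 6239 to 8124, most of it *Trac* (3977 to 7858 in a library). *Trac*, the constant region of the TCR alpha chain (0.55 on the log2 scale, edgeR adjusted p = 0.000151), and *Thy1* (0.996, 2.24e-06) were higher, *Cd4* was lower, and *Cd3e*, *Cd3d* and *Cd3g* were not called. The part of these cells and transcripts in the differences of the 9 genes was not tested.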

How the data were processed

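OT-II Tfh cells were analysed from 6 recipient mice with 2 technical repeats each. The authors made SMART-Seq2 libraries of polyadenylated RNA, aligned the reads with HISAT2 2.2.1 to GRCm38 (mm10 in the submitters' processing notes) and counted them per gene with HTSeq-count. The annotation release and the strand setting are not given in the sources used here. The authors deposited raw counts for 24561 genes and TPM values for 24530 genes. All columns were mapped to libraries by their names.

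The repeats of a mouse were summed, and the 6 mice were compared with edgeR 4.0.16 in R 4.3.3 (filterByExpr, TMM normalization, quasi-likelihood test, Benjamini-Hochberg adjustment over 12719 genes, threshold 0.05). SEs were the log2 fold change divided by the root of F. Alternatives used DESeq2 1.42.0, limma 3.58.1 (voom with the mouse as random effect, and log2(TPM + 1) or log2(TPM + 0.1)), other scalings and filters, each repeat alone, the replicate block, GC content and length trends removed with mgcv 1.9.3, and each mouse left out. Removing the first library of wild-type mouse 2 was chosen after seeing the data. The edgeR fit, the same with the replicate block alone or the trend removal alone, DESeq2 on mice, limma voom and the interaction were tested on simulated data, and the other alternatives were not. When a GC trend was simulated, most calls of the uncorrected edgeR fit were unchanged genes, and few of the corrected fit were. The simulated trend was steeper than the measured one and rose with GC content, where the measured medians fell. The simulated shares of unchanged genes therefore do not carry over to these data.

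Positions, lengths and GC content came from GENCODE M21 (GRCm38), which held 23801 symbols of the count table under the same name and 245 under another, and lacked 515. The genes named were the 9 members, *Bcl6*, the 4 called genes of smallest p in each direction of each list, fixed counterparts (*Fyn*, *Syk*, *Plcg2*, *Cd3e*, *Blnk*, *Lat2*) and the 3 nearest profiles of each called member. *Sh2d2a*, the remaining adaptor called lower, was named outside this rule. *Csk*, *Ptpn6*, *Cd3d*, *Cd3g*, *Cd2*, *Cd28* and the marker genes were named after their values were seen. The motifs were also chosen after a first look at the promoters. The members and lists were chosen with earlier results of these data known. SEs and intervals come from the spread between mice, which edgeR partly shares across genes.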

Additional observations from a re-analysis of the deposited data

Results flagged for a closer look

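*Bcl6* in the first library of wild-type mouse 2 was at 99.8 normalized CPM, where the median of the other wild-type libraries was 56.4. Its gap to the nearest library was 0.69 of the group's range, above Dixon's 95% critical value for 6 samples. It was the only one of 20 groups of libraries (the 9 genes and *Bcl6*, each in 2 genotypes) to pass the limit, and chance alone passes about 1 in 20. None of the 9 genes passed it in either group. The same library held the highest *Plcg1* value, 169.6 normalized CPM.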

How the results depend on the processing

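Over 24 alternatives, the 6 genes called lower stayed below 0 in each, and *Plcg1* and *Zap70* were called in 23, *Lck* in 19, *Lcp2* in 17, *Lat* in 14 and *Cd4* in 13. The number of the 9 genes called, all lower, was 2 with technical repeat 1 alone (9.38% of all genes tested were called), 3 with log2(TPM + 1) (10.3%), 3 with log2(TPM + 0.1) (9.92%), 0 with log2(TPM + 1) over all genes (0.987%) and 3 with GC content and length trends removed (16.2%). The number ranged from 2 to 5 without single mice (10.8% to 14.9% of all genes), with *Plcg1* and *Zap70* left without wild-type mouse 1 (12.8%). In the fit with 0 of the 9 called, limma adjusted p was 0.0609 for *Zap70* and 0.0676 for *Plcg1*. The count over all genes was 1059 of 11286 and 1446 of 11623 with repeat 1 or repeat 2 alone, 1305 and 1260 of 12705 and 221 of 22392 in the 3 TPM fits, and 1424 of 13222 to 1972 of 13225 without single mice, the lowest without wild-type mouse 3. Upper-quartile scaling moved the split from 1166 higher and 1122 lower to 1331 and 957, total count scaling to 963 and 1387, and the TPM fits to 390 and 915, 374 and 886, and 78 and 143. The median log2 fold change of all genes was -0.11 with log2(TPM + 0.1) and 0.01 in the counts. The count in the TCR signaling list was 4 with repeat 1 alone, 6, 6 and 1 in the TPM fits, and 6 to 12 without single mice, with 6 both without BCL6-insufficient mouse 1 and without wild-type mouse 3. The interaction count was 13, 22 with limma voom and 3 to 19 without single mice, with 5 without BCL6-insufficient mouse 2, wild-type mouse 2 or wild-type mouse 3, and 3 without BCL6-insufficient mouse 3. The cause of these changes was not tested.

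*Cd247* turned to 0.0058 with upper-quartile scaling, 0.14 with repeat 1 alone and 0.0083 without wild-type mouse 1, and ranged from -0.090 to 0.0083 without single mice. *Ptprc* turned to -0.016 with total count scaling, -0.11 with repeat 2 alone, -0.056, -0.057 and -0.056 in the TPM fits, -0.21 with GC content and length trends removed, -0.21 when the replicate block was added to that, and -0.062 without wild-type mouse 3, and ranged up to 0.088 without single mice. Same-numbered mice did not deviate together in every pair (correlations 0.19, -0.03 and 0.17), so the numbers were not taken as pairs. With the replicate block, 2579 genes, 6 of the 9 genes and 15 genes of the TCR signaling list were called, and with the replicate block and the trends removed 2373, 6 and 14, where *Ptprc* was called lower (edgeR adjusted p = 0.0357) and *Lat* was not. Centring the proportions on the median of the 9 genes left *Ptpn22* at 0.01, *Cd247* at 0.16, *Ptprc* at 0.22, *Zap70* at -0.29 and *Plcg1* at -0.40. In repeat 1 and repeat 2 alone, the proportions differed by -0.49 and -0.16 for *Plcg1*, 0.37 and 0.18 for *Cd247*, 0.46 and 0.24 for *Ptprc*, and -0.17 and 0.10 for *Lat*.

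With 3 mice in each group, the smallest exact p of a single gene is 0.1, and the edgeR calls use a spread shared across genes.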
